A study of Mus musculus with 3 samples.

Results

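The genes described here are 37 lysosomal genes: hydrolases that break down sugars, sulfated glycans, lipids, peptides and nucleic acids, the activator and transfer proteins that present lipids to them, and proteins of the lysosomal membrane. They were listed by symbol for their known role, with earlier results of these data in view, and make up 37 of 22015 nuclear protein-coding genes (55536 annotated genes in all). All 37 were measured in cytosolic RNA of bone marrow-derived macrophages from C57BL/6J mice. The cells were primary, had no label for a genetic change, and had been treated with lipid A, an agonist of the receptor TLR4, at 100 ng/ml for 25 min. Ribosomal RNA was depleted from 1 µg of RNA per library before sequencing. The 3 libraries were biological replicates of that single group, with no untreated sample and no other cell fraction among them, so an effect of lipid A on any level can be neither shown nor excluded. Age and sex of the animals were not collected, and all 3 libraries point to 1 donor record. Whether they came from separate animals is therefore not known, and the spread between them may be technical.

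Lysosomes are the acid compartments in which macrophages digest what they engulf, and a missing hydrolase leaves its substrate stored in the cell. Most of the soluble enzymes are tagged with mannose 6-phosphate in the Golgi and carried to endosomes by receptors for that tag, while the membrane proteins follow sorting signals in their short cytosolic tails. Factors of the MiT/TFE family bind an E-box, the palindrome CACGTG, in the promoters of many lysosomal genes.

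Expected counts, the authors' estimates of reads per gene, totalled 53055764, 43620362 and 38623777 in replicates 1, 2 and 3, and the smallest count of any of the 37 genes was 805 (Aga, replicate 2). Levels between genes are given in TPM (a share of the library's transcripts, corrected for transcript length), and libraries are compared in CPM (counts relative to library size, scaled with TMM factors). Nuclear protein-coding genes held 22.7, 22.9 and 29.8% of all TPM in the 3 libraries, so TPM values in replicate 3 run higher for most genes. All 8 macrophage markers on a list, among them Csf1r, Adgre1 and Mertk, were at 1 TPM or more in every library. None of the 4 markers each of T cells, B cells, erythroid cells, mast cells and basophils, dendritic cells, fibroblasts or osteoclasts reached that level in every library. Of 6 neutrophil markers 3 did, and their summed level was 29.0, 50.9 and 33.3 TPM.

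All 37 genes were at 1 TPM or more in every library, against 41.3% of nuclear protein-coding genes, a count that describes the list and is no test of it. Their median level was 39.6, 41.2 and 56.8 TPM in replicates 1, 2 and 3, a mean of 45.9 ± 9.52 TPM (SD, n = 3). The median of the 9084 detected nuclear protein-coding genes was 6.88, 7.23 and 9.24 TPM, a mean of 7.78 ± 1.27. Above that median in every library were 35 of the 37 genes, 20 ranked among the 1000 most abundant of the 9084 and 7 among the first 100. Together they took 4.92, 4.92 and 4.45% of the counts on nuclear protein-coding genes, and Psap alone took 2.67, 2.73 and 2.23%. The highest mean level, that of Psap, was 973-fold the lowest, that of Arsb.

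**Figure D1:**
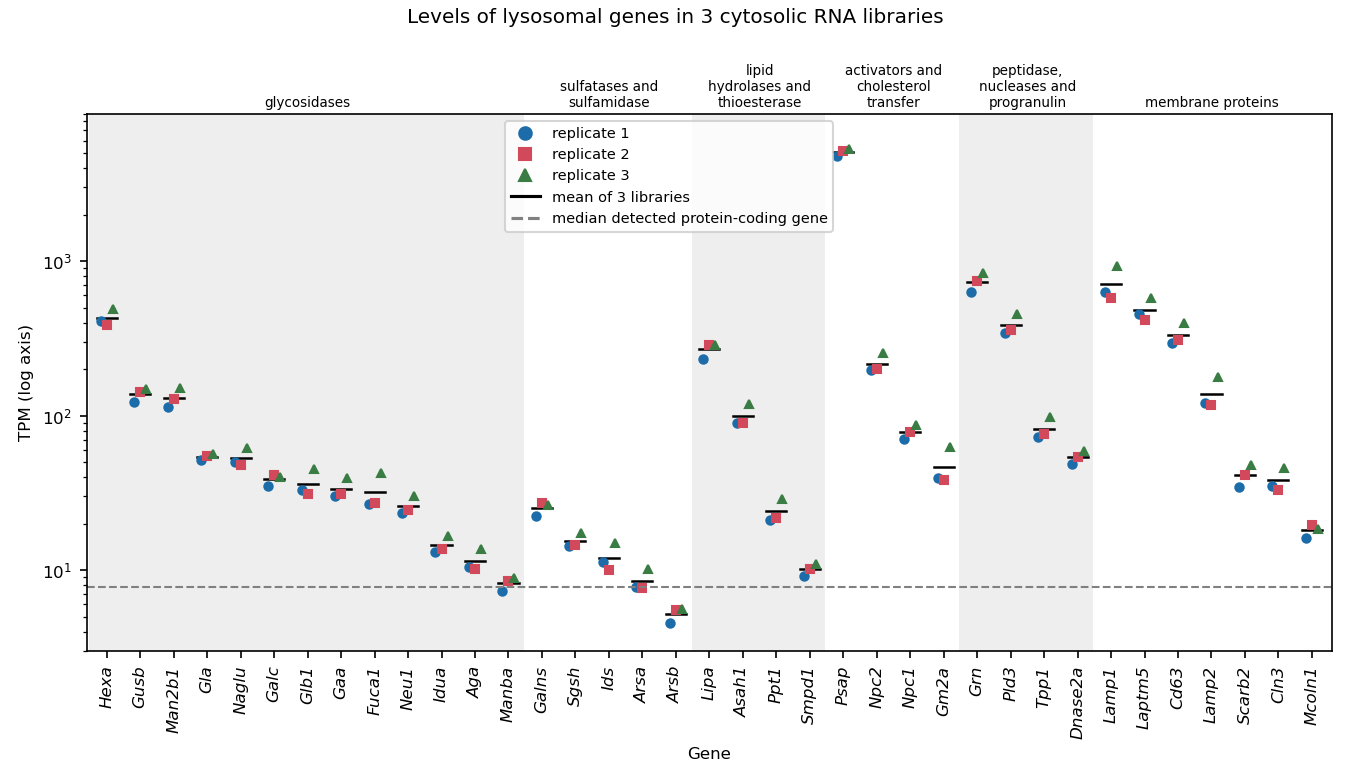
TPM on a log axis of each lysosomal gene in replicates 1 to 3 (coloured points) with the mean over libraries (black line), grouped by role; the dashed line is the median of all detected nuclear protein-coding genes (7.78 TPM). Psap stands at 5085 TPM, and only Arsb lies below the dashed line in all 3 libraries.

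The glycosidases trim sugars from glycoproteins, glycolipids and glycosaminoglycans, and their 13 members had a median of 35.5 ± 6.21 TPM. Hexa, the alpha subunit of beta-hexosaminidase, was the most abundant at 407, 386 and 487 TPM, a mean of 427 ± 53.6. Gusb, beta-glucuronidase, followed at 122, 142 and 149 TPM and Man2b1, the lysosomal alpha-mannosidase, at 114, 128 and 150 TPM. The ranges of Gusb and Man2b1 overlapped, also with TPM taken over protein-coding genes alone.

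Gla, the alpha-galactosidase that removes terminal galactose from globotriaosylceramide, had 51.3, 54.9 and 56.8 TPM. Naglu, which acts on heparan sulfate, had 49.8, 47.6 and 61.5 TPM. Galc, the galactosylceramidase of myelin lipid breakdown, had 34.9, 41.1 and 40.2 TPM. All 3 stood above the median detected gene in every library. Glb1 (beta-galactosidase), Gaa (acid alpha-glucosidase, which degrades glycogen), Fuca1 (alpha-fucosidase) and Neu1 (sialidase) had mean levels of 36.3, 33.5, 32.2 and 26.0 TPM. At the lower end stood Idua, the iduronidase of dermatan and heparan sulfate, with a mean of 14.5 ± 1.78 TPM. Aga, which frees asparagine from its glycan, had a mean of 11.5 ± 1.99 TPM. Manba, beta-mannosidase, was lowest at 7.35, 8.45 and 8.90 TPM.

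The sulfatases and the sulfamidase remove sulfate groups and were the least abundant role group, with a median of 12.1 ± 2.57 TPM over 5 members. Galns, which acts on keratan sulfate and chondroitin 6-sulfate, led at 22.5, 27.1 and 26.2 TPM. Sgsh, the sulfamidase of heparan sulfate, had 14.4, 14.4 and 17.4 TPM, below Galns in every library. Ids, the iduronate sulfatase, had a mean of 12.1 ± 2.57 TPM. Arsa, which desulfates the myelin lipid sulfatide, had 7.76, 7.66 and 10.1 TPM. Arsb, the N-acetylgalactosamine 4-sulfatase, had 4.52, 5.54 and 5.62 TPM and was the lowest of all 37 genes in each library. Sumf1, the enzyme that activates all sulfatases by converting a cysteine to formylglycine, had 20.4, 22.3 and 25.6 TPM.

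Among the 4 lipid hydrolases (median 61.8 ± 10.7 TPM), Lipa, the acid lipase that frees cholesterol from engulfed lipoproteins, stood at 233, 286 and 286 TPM. Asah1, acid ceramidase, had 89.7, 89.7 and 119 TPM. Ppt1, a thioesterase that removes palmitate from proteins, had a mean of 24.0 ± 4.37 TPM. Smpd1, acid sphingomyelinase, was lowest at 9.21, 10.1 and 11.0 TPM. Lipa and Smpd1 are the ends of this group by the way they were picked, so the gap between them describes its range.

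The activator and cholesterol transfer proteins had a median of 148 ± 19.0 TPM over 4 members. Psap (chr10:60277627-60302597, plus strand, mm10) encodes prosaposin, which is cut into the saposins that lift sphingolipids out of membranes for the hydrolases. Its level was 4787, 5155 and 5312 TPM, a mean of 5085 ± 269, which ranked 3 among the 9084 detected genes. That mean was 6.92-fold that of Grn, the next of the 37 genes. Npc2, which carries cholesterol inside the lysosome, had 197, 200 and 252 TPM. Npc1, the membrane protein that takes cholesterol over from Npc2, had 70.6, 78.9 and 86.3 TPM, below Npc2 in every library. Gm2a, the activator that presents ganglioside GM2 to hexosaminidase A, had 39.6, 38.3 and 62.5 TPM.

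Grn, progranulin, is a secreted and lysosomal protein cut into granulins, and its level was 635, 738 and 832 TPM (mean 735 ± 98.5). Pld3, an exonuclease of endolysosomal nucleic acids, had 343, 360 and 453 TPM. Tpp1, a tripeptidyl peptidase, had a mean of 82.4 ± 13.6 TPM, and Dnase2a, the acid DNase that digests DNA of engulfed cells, had 48.5, 53.7 and 59.0 TPM. In this group of 4 the median was 234 ± 36.4 TPM, the highest of the 6 role groups.

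The 7 membrane proteins had a median of 138 ± 33.8 TPM. Lamp1, a heavily glycosylated protein that lines the inner face of the membrane, had 632, 580 and 930 TPM (mean 714 ± 189). Laptm5, a lysosomal membrane protein of blood cells, had 454, 418 and 576 TPM. Cd63, a tetraspanin of late endosomes, had 293, 309 and 400 TPM. Lamp2, the second glycoprotein of that kind and a receptor of chaperone-mediated autophagy, had 120, 117 and 177 TPM. Scarb2, which carries glucocerebrosidase to the lysosome, had a mean of 41.1 ± 6.57 TPM and Cln3, a multispanning membrane protein lost in juvenile Batten disease, one of 38.1 ± 6.94 TPM. Mcoln1, the calcium channel TRPML1, was lowest of the group at 16.2, 19.6 and 18.6 TPM.

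Ranked by mean TPM, the 37 genes form 36 pairs of neighbours, and 20 pairs kept their order in all 3 libraries. With TPM taken over protein-coding genes alone, the ranges of 17 pairs did not overlap and those of 19 pairs did. The separated pairs included Psap over Grn, Npc2 over Lamp2 and Manba over Arsb. Grn and Lamp1 overlapped, as did Tpp1 and Npc1, so their order was not resolved by these libraries.

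The spread between libraries was small for all 37 genes. In CPM, the highest library exceeded the lowest by more than 1.5-fold for 0 of 37 genes, against 17.9% of the 12744 genes tested (those with enough counts). Among the 5826 nuclear protein-coding genes at or above the lowest of the 37 in CPM, that share was 3.93%. With the limit set at 25% above the lowest library, 4 of 37 genes passed (Gm2a, Lamp1, Galns and Galc), against 36.8% of all genes tested. For the 5826 genes the share was not taken at that limit. The SD of log2 CPM had a median of 0.104 over the 37 genes, 0.127 over all genes tested and 0.089 over those 5826 genes. The median of the 37 was thus below that of all genes tested and above that of the 5826 genes. Those genes share only a lower limit with the 37 and were not matched to them in abundance.

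**Figure D2:**
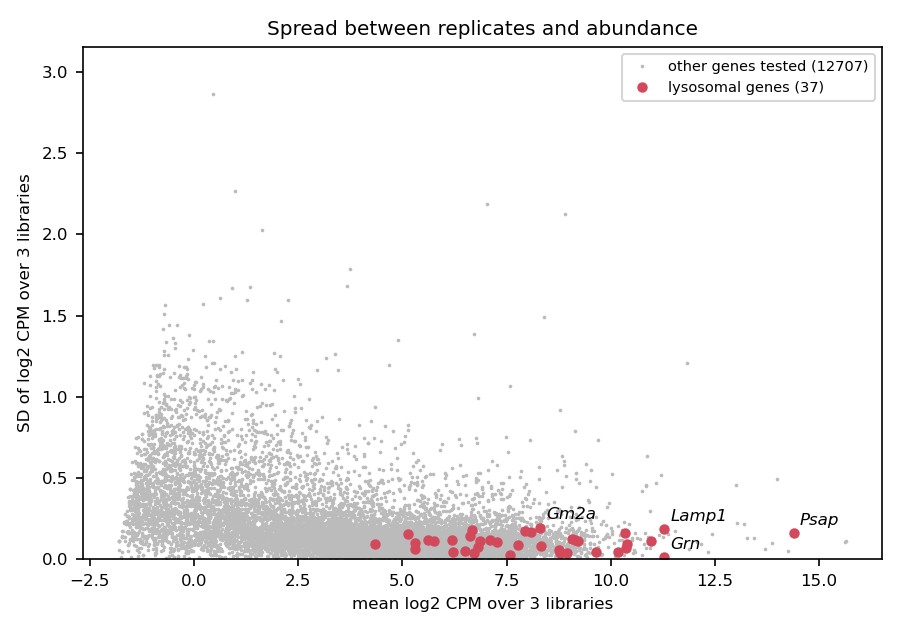
SD of log2 CPM over the 3 libraries (vertical axis) against mean log2 CPM (horizontal axis) for every gene tested (grey) and the 37 lysosomal genes (red). The red points lie between 0.010 (Grn) and 0.194 (Gm2a) at the abundant end of the plot.

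Gm2a had the largest SD of log2 CPM, 0.194, with deviations from its own mean of -0.03, -0.18 and 0.21 in replicates 1, 2 and 3. Its highest library exceeded its lowest 1.30-fold. Lamp1 had the same order of libraries, with deviations of 0.02, -0.20 and 0.17 and a range of 1.29-fold. Galns was the reverse, with deviations of -0.003, 0.18 and -0.18 and a range of 1.29-fold. Galc deviated by 0.02, 0.16 and -0.19 on the log2 CPM scale, a range of 1.27-fold. Gla was even in replicates 1 and 2 (0.10 and 0.10) and lower in replicate 3 (-0.19). Grn was the steadiest gene, with deviations of 0.008, 0.004 and -0.012 and a range of 1.01-fold.

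For 22 of the 37 genes replicates 2 and 3 were the extremes, in either direction. Replicate 2 was highest and replicate 3 lowest for 12 genes: Gusb, Man2b1, Manba, Galc, Arsb, Galns, Smpd1, Lipa, Psap, Npc1, Dnase2a and Mcoln1. That pattern held for 19.6% of the 5826 protein-coding genes at or above the lowest of the 37 in CPM. Replicate 3 was highest and replicate 2 lowest for 10 genes: Glb1, Fuca1, Aga, Ids, Ppt1, Gm2a, Lamp1, Lamp2, Cln3 and Cd63. This second pattern held for 28.3% of those 5826 genes. Replicates 1, 2 and 3 were highest for 14, 13 and 10 genes, against 29.9, 32.0 and 38.1% of those 5826 genes. They were lowest for 1 (Scarb2), 18 and 18 genes, against 22.2, 47.5 and 30.3%. Among the 7 membrane proteins the median deviation in replicate 2 was -0.11, and for the 13 glycosidases it was -0.01. Over all 37 genes the median deviations were 0.03, -0.01 and -0.02, against 0.001, -0.001 and -0.002 over all genes tested. With scaling by library size alone the value in replicate 3 was 0.01, and without replicate 1 that in replicate 2 was 0.01, so the signs of these small medians depend on the scaling and the libraries used.

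**Figure D3:**
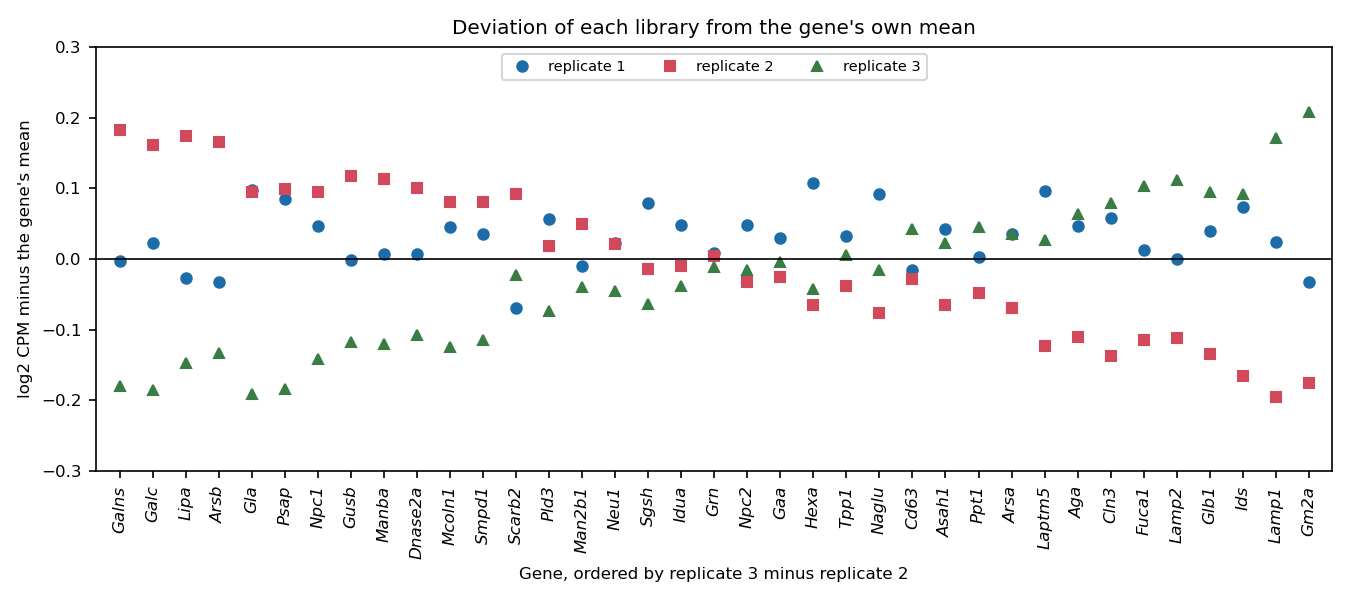
Deviation of log2 CPM from the gene's own mean in each library, for the 37 genes ordered by replicate 3 minus replicate 2. Galns, Galc, Lipa and Arsb on the left are highest in replicate 2, Lamp1 and Gm2a on the right are highest in replicate 3, and replicate 1 is lowest for Scarb2 alone.

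The neutrophil markers were also uneven between the libraries. Of 5 with enough counts, 4 had a range over 1.5-fold, each highest in replicate 2, and S100a9 had 9.42, 15.3 and 8.18 CPM. Mpo, also among them, had only 44, 99 and 19 counts. A range over 1.5-fold was also found for all 3 dendritic cell markers with enough counts, each under 1 TPM in every library. Flt3 and Siglech were highest in replicate 2 and Zbtb46 in replicate 3. In bulk RNA, more cells of a type and more RNA per cell cannot be told apart. The part of such cells in the differences between replicates was not tested. The common biological coefficient of variation over all genes tested, edgeR's measure of replicate spread, was 15.2% with all libraries, 19.2% without replicate 1, 10.03% without replicate 2 and 15.4% without replicate 3. The median SD of log2 CPM of the 37 genes was 0.104 with all libraries, 0.136 without replicate 1, 0.072 without replicate 2 and 0.079 without replicate 3, so leaving out replicate 2 or 3 lowered it to a similar value.

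The level of a gene also depends on how reads are assigned to transcripts, and the deposited data hold an alignment-based and an alignment-free quantification. With both expressed over nuclear protein-coding genes, 0 of 37 genes differed by more than 1.5-fold, against 1.77% of the detected genes. Within 1.1-fold lay 32 of 37, a count that describes the list only, as the share of detected genes was not taken at that limit. Fuca1 had the lowest ratio of alignment-based to alignment-free level, 0.735, followed by Cln3 at 0.752 and Asah1 at 0.867. Npc1 had the highest, 1.26, followed by Grn at 1.13. The main coding transcript of Fuca1 held 94.6, 90.6 and 83.4% of the gene's TPM in the alignment-based and 66.6, 62.8 and 52.1% in the alignment-free tables. There a noncoding transcript of Fuca1 held 30.9, 29.8 and 29.6%. Cln3 has 19 annotated transcripts, and its most abundant one in the alignment-based tables held 19.3, 19.5 and 21.6%. The alignment-free tables gave that transcript of Cln3 2.00, 1.91 and 3.27% and put another coding one first, at 28.4, 26.1 and 33.5%.

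Exons of 13 of the 37 genes overlap those of another gene, on the same strand only for Glb1, which shares 5.49% of its exon bases with Tmppe. No source used here says whether the counting used strand, so the values of such genes are uncertain to that extent. The share of all genes with such an overlap was not taken, so 13 of 37 describes the list only. Cln3 shares 7.65% of its exon bases with Apobr on the opposite strand, and Apobr had 5833, 6207 and 3970 counts, more than the 3983, 2886 and 3071 of Cln3. Ppt1 shares 3.51% with Cap1, which had at least 17857 counts in every library. Arsb shares 32.3% with the noncoding gene Gm26527 (at most 222 counts) and Dnase2a 30.0% with Mast1 (at most 7.97 counts).

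Most of the 37 genes had 1 main transcript, though often with others beside it. In every library 33 of 37 had 1 transcript with at least 50% of the gene's TPM, against 78.9% of detected genes. The exceptions were Cln3, Gaa, Psap and Lamp2. With the limit at 80%, 26 of 37 passed, against 47.3% of detected genes. For Gaa, a pair of coding transcripts held a mean of 51.2 and 47.7%, and the alignment-free quantification gave them 65.2 and 30.5%.

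Lamp2 (chrX:38401357-38456454, minus strand, mm10) ends in alternative last exons that encode the membrane anchor and the cytosolic tail. The tail carries the sorting signal and, in LAMP-2A, the site used in chaperone-mediated autophagy. The coding part of each last exon is printed below 5′ to 3′ because it is what tells the isoforms apart, with the last 18 bases, the final 5 codons and the stop codon, in capitals. They lie at chrX:38405432-38405571 (LAMP-2A), chrX:38421712-38421851 (LAMP-2B) and chrX:38402139-38402281 (LAMP-2C), and the first 2 are 140 bases long, the other 143.
LAMP-2A: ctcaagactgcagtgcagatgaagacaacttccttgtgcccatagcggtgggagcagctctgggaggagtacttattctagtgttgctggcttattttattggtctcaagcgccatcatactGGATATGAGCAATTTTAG
LAMP-2B: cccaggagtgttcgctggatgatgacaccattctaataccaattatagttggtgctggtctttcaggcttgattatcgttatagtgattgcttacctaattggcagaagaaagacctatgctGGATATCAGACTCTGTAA
LAMP-2C: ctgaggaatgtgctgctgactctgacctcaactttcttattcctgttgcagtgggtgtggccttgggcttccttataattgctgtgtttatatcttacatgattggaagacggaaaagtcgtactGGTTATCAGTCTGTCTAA

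LAMP-2B held 51.2, 52.7 and 48.0% of Lamp2 TPM, a mean of 50.6 ± 2.42%. LAMP-2A held 48.0, 45.5 and 51.2%, a mean of 48.2 ± 2.88%. Their ranges overlapped, and replicate 3 had the opposite order from the other 2 libraries. In the alignment-free tables LAMP-2A was ahead in all 3 libraries, at 52.5 ± 2.68% against 46.2 ± 2.04%, so which of the 2 leads depends on the quantification. LAMP-2C held 0.291, 0.341 and 0.400%, with 71.8, 63.6 and 82.9 counts. It was the rarest of the 3 in every library by either quantification.

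Psap has an upstream and a downstream RefSeq start. The coding transcripts Psap-202 and Psap-203 are labelled upstream and downstream in the figure of transcript shares. Their exons were not compared with each other or with these starts, so the labels do not place them. The 100 bases upstream of each RefSeq start (assembly GRCm38.p6) are shown for their sequence only, as use of either start was not measured. Neither of these stretches holds CACGTG. They cover chr10:60277528-60277627 and chr10:60284361-60284460.
Psap upstream start: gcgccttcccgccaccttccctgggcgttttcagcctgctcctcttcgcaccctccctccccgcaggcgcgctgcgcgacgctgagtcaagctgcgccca
Psap downstream start: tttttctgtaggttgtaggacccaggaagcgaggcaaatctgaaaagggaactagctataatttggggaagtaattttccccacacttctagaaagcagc

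Psap-202 held 63.3, 64.9 and 48.7% of Psap TPM. Psap-203 held 34.7, 32.5 and 48.8%. Replicates 1 and 2 were alike, and in replicate 3 the shares were nearly equal. The alignment-free tables gave 75.9, 74.2 and 54.5% for Psap-202 and 21.8, 22.4 and 42.4% for Psap-203, with replicate 3 again apart from the other 2. Replicate 3 was also the library in which Psap was lowest in CPM, by 0.18 below its mean on the log2 scale. At 1660, 1670 and 2590 TPM, Psap-203 alone exceeded the whole of Grn in each library.

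Retained introns, segments that splicing normally removes, made up at least 10% of TPM in every library for 2 of 37 genes, Arsa and Npc1, against 8.2% of detected genes. At 1% or more in any library were 13 genes, and the other 24 stayed under 1% in all. The share of detected genes was not taken at that limit, so these counts describe the list only. Among the 21 genes with a share above 0 in every library, replicate 2 had the highest share for 16, against 74.3% of the 4463 detected genes of that kind. Neu1 had 4.38, 8.29 and 3.77%, Mcoln1 5.37, 8.20 and 4.63% and Cln3 6.94, 12.4 and 6.00%. Pld3 had 0.661, 1.18 and 10.1%, so it passed the limit in 1 library only. Its retained-intron transcript of 9.93% in that library had 0.308% there in the alignment-free tables.

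Arsa was the only one of the 37 genes whose main transcript is annotated as noncoding. A transcript annotated as a retained intron held 70.4, 72.8 and 66.5% of Arsa TPM, and the main coding transcript held 25.9, 24.7 and 30.9%. The alignment-free tables gave 63.5, 68.7 and 63.4% for the retained-intron transcript, so both quantifications put it first in every library. That transcript keeps intron 4 of the coding one, a segment of 77 bases at chr15:89474710-89474786. That intron is printed with 10 exon bases on each side (chr15:89474700-89474796, minus strand, mm10), as a segment by which the transcripts differ. Its first and last 2 bases are in capitals.
Arsa retained intron: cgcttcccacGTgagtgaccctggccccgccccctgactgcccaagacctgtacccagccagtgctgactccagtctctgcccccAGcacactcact
The retained-intron transcript is 2699 bases long and the coding one 3492, and their exons were not compared beyond that intron. The antisense gene C230037L18Rik overlaps 18.8% of Arsa exon bases and had 15.1, 23.3 and 11.0 counts, against 2096, 1617 and 1593 for Arsa.

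The retained-intron transcript of Npc1 held 31.4, 33.0 and 36.2% in the alignment-based tables and 1.33, 2.35 and 7.06% in the alignment-free tables. The share of that transcript thus rests on the quantification, and Npc1 was also the gene with the highest ratio between them. Asah1 went the other way, with 0.167, 0.725 and 0.679% on its retained-intron transcript in the alignment-based and 11.2, 14.7 and 12.6% in the alignment-free tables.

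**Figure D4:**
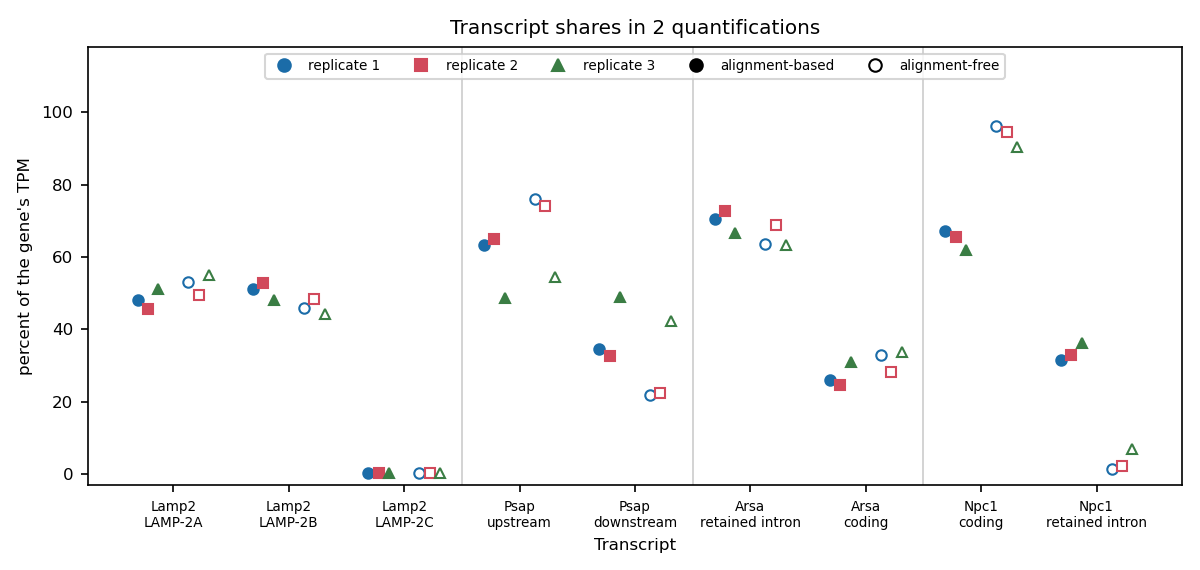
Percent of the gene's TPM on each named transcript of Lamp2, Psap, Arsa and Npc1 in replicates 1 to 3, from the alignment-based (filled) and alignment-free (open) tables. The retained-intron transcript of Arsa leads by either method, and Psap-202 is lowest in replicate 3 (48.7% and 54.5%). The axis names Psap-202 upstream and Psap-203 downstream, which does not place their starts. The Npc1 transcript with a retained intron drops from a mean of 33.5% to 3.58% between the methods.

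Promoter windows from 250 bases before to 50 after a RefSeq start (GRCm38.p6) were found for 33 of the 37 genes, in 35 windows. No window was used for Npc1, Galns, Asah1 and Aga. CACGTG, which reads the same on both strands, occurred in 9 of the 33 genes (27.3%), against 8.09% of the 27025 genes with a window and 12.9% of the 7289 detected ones. The longer letters GTCACGTG, searched on both strands and always holding the shorter ones, occurred in 8 of 33 (24.2%), against 2.55% of all genes and 5.60% of the detected ones. The genes with an E-box were Arsa, Cln3, Gaa, Gla, Glb1, Lamp1, Mcoln1, Naglu and Sgsh. Those with an E-box had a median of the mean levels of 36.3 TPM and the 24 without one 68.1 TPM, with ranges of 8.51 to 714 and 5.23 to 5085 TPM. A match of letters is a description of the sequence and no sign that a factor was bound in these cells.

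The following stretches of 100 bases show the E-boxes, in capitals, of 4 of these genes, chosen to cover the most abundant one, a single E-box near the start, a gene of low level and an E-box far upstream. Lamp1 (chr8:13159061-13159160, plus strand) holds 4, at 61, 45, 28 and 15 bases before the start. Glb1 (chr9:114400978-114401077, plus strand) and Arsa (chr15:89477425-89477524, minus strand) hold 1 each, at 48 and 16 bases. Gla (chrX:134601156-134601255, minus strand) holds 2, at 227 and 194 bases, and its stretch covers bases 250 to 151 before the start.
Lamp1: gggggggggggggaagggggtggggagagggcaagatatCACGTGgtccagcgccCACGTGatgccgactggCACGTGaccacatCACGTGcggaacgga
Glb1: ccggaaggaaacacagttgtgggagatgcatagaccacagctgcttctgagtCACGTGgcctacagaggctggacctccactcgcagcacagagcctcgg
Arsa: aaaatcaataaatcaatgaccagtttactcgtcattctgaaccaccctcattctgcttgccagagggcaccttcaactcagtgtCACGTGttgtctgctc
Gla: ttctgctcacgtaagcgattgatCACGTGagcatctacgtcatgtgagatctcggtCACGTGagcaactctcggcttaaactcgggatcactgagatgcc

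**Figure D5:**
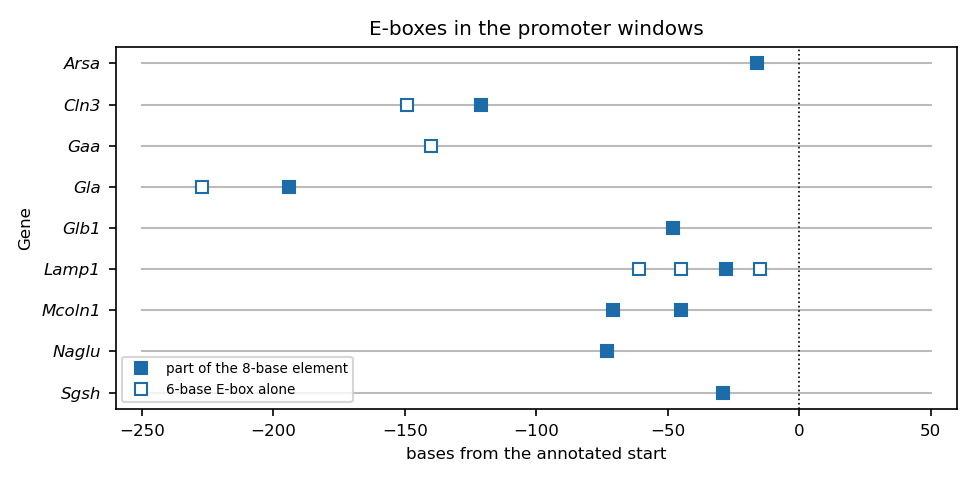
Position of each CACGTG in the promoter windows of the 9 genes that hold one, in bases from the annotated start (dotted line); filled squares are part of the longer element and open squares are the E-box alone. Lamp1 has 4 E-boxes within 61 bases of the start, and all 9 genes have theirs upstream of it.

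The 4 MiT/TFE factors on the list of regulators were each detected, and other factors that bind this E-box were not on it. Tfeb had 10.2, 11.7 and 13.0 TPM, Tfe3 23.6, 24.7 and 32.4, Mitf 8.44, 9.08 and 12.1, and Tfec 8.72, 8.35 and 13.8. Tfe3 was thus the most abundant of the 4 in every library. Tfeb and Tfe3 varied between libraries by 1.033- and 1.036-fold in CPM, and Tfec by 1.31-fold.

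All 11 genes on the list of regulators and trafficking were at 1 TPM or more in every library. M6pr, the smaller mannose 6-phosphate receptor, had 61.7, 70.5 and 83.8 TPM. Igf2r, the larger one, had 20.0, 29.2 and 20.7 TPM and was the only gene of the list with a range over 1.5-fold, at 345, 471 and 266 CPM. Sort1, sortilin, had 9.19, 13.9 and 12.4 TPM. Gnptab and Gnptg, which encode the enzyme that starts the mannose 6-phosphate tag, had mean levels of 15.0 ± 1.96 and 9.08 ± 1.17 TPM. Nagpa, which uncovers the tag, had a mean of 17.8 ± 2.65 TPM.

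Of 39 further lysosomal genes on a list, 35 were at 1 TPM or more in every library, and 0 of 38 with enough counts had a range over 1.5-fold. Their median was 21.1 TPM in replicate 2 and 24.3 TPM in replicate 3, below that of the 37 genes in every library. Cd68, a glycoprotein of the macrophage lysosome membrane, was the most abundant at 682, 591 and 878 TPM. Slc11a1, the phagosomal metal transporter, had a mean of 99.6 ± 14.4 TPM and Laptm4a one of 86.8 ± 23.7 TPM. Below 1 TPM in all 3 libraries were Hyal3, a hyaluronidase, Plbd1 and Abcb9.

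Close relatives of the 37 genes were measured in the same libraries. The list held 34 paralogues of 19 of the genes, of which 16 were at 1 TPM or more in every library. Of those 16, 11 were below their lysosomal relative in all 3 libraries and 3 were above it. Asah1 exceeded Asah2 by 17.5 ± 1.69-fold and Naaa by 17.3 ± 2.42-fold. Cd63 exceeded the tetraspanins Cd9 by 6.31 ± 0.27-fold and Cd81 by 9.95 ± 1.44-fold, and Cd82 by a mean of 26.3-fold. Pld3 exceeded Pld4, another endolysosomal exonuclease, by 5.37 ± 0.886-fold. Glb1 exceeded Glb1l by 11.1 ± 1.64-fold and Gaa exceeded Ganc by 9.21 ± 0.331-fold. The margins were smaller for Man2b1 over Man2b2 (2.37 ± 0.255-fold), Scarb2 over Scarb1 (2.07 ± 0.299-fold) and Ppt1 over Ppt2 (1.21 ± 0.0684-fold). Lamp3, Lamp5, Glb1l2, Neu2, Neu4, Lipf and Psapl1 were listed at 0 in every library.

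The 3 exceptions were Smpdl3a, Fuca2 and Cd36. Smpdl3a, a phosphodiesterase related to acid sphingomyelinase, had a mean of 51.5 ± 10.8 TPM against 10.1 ± 0.905 for Smpd1. Fuca2, the secreted fucosidase, had 46.7 ± 9.62 TPM against 32.2 ± 8.97 for Fuca1, and the order was the same in each library. Cd36, a scavenger receptor of the cell surface, had 101, 216 and 91.6 TPM against 34.4, 41.2 and 47.6 for Scarb2. Mcoln2 and Mcoln3 stood close to Mcoln1, with means of 18.3 ± 2.86 and 23.1 ± 5.45 TPM against 18.1 ± 1.75. Mcoln1 was above each of them in 1 of 3 libraries, so the order of the mucolipin channels was not resolved.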

How the data were processed

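Per the labels, all 3 libraries are biological replicates of 1 group, numbered there. The accompanying files name mm10 and GENCODE M21. Per the file headers, the authors deposited expected counts and TPM per gene and transcript in the columns RSEM writes, and estimated counts and TPM per transcript in the columns kallisto writes. Tool versions, library strand and counting settings: not given in the sources used here. Rows outside annotated genes (0.186, 0.167 and 0.0395% of expected counts) were left out. The floor of 3 counts equals 0.0566, 0.0689 and 0.0777 CPM and covers counting error only.

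Expected counts were rounded, filtered with filterByExpr (12744 genes) and given TMM factors with edgeR 4.0.16 under R 4.3.3, with a prior count of 2 for log2 CPM. The coefficient of variation came from an intercept-only fit. Shares, medians and sequence searches used Python 3.11.15 with numpy 2.4.6 and pandas 2.3.3, and figures matplotlib 3.10.9. The spread step was tested on simulated data. With a single group there is no contrast, so no test between groups was run, and values are described with the SD over 3 libraries beside the same value over all genes. Members and lists were chosen with earlier results of these data known. The rule for genes given in every library took, per role group, the 2 highest and the lowest in mean TPM, the 5 of largest SD and the 5 of largest ratio between quantifications, all regulators, relatives of the members, and of the other lysosomal genes the 4 highest and all below 1 TPM. The values of 1 other lysosomal gene are not reported here. Further members were added after their values were seen. Alternatives were DESeq2 1.42.0 size factors, library size, other filters, thresholds and prior counts, the alignment-free tables, TPM over protein-coding genes and each replicate left out.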

Additional observations from a re-analysis of the deposited data

How the results depend on the processing

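No paired analysis was possible because the libraries form a single group and no groups share replicate numbers. The median of the 37 genes was 45.9 TPM, and 15.8 TPM with the alignment-free tables, 181.9 with TPM over nuclear protein-coding genes and 200.1 with alignment-free TPM over those genes. The construction of the denominator sets these values, since protein-coding genes hold 22.7 to 29.8% of alignment-based and 6.27 to 10.7% of alignment-free TPM. With the range limit at 25% above the lowest library 4 genes passed, against 36.8% of all genes tested. At 1.5- and 2-fold 0 did, against 17.9 and 7.62%. The median deviation was -0.0537 in replicate 2 with the alignment-free tables and 0.0139 in replicate 3 with library size alone, and the cause was not tested. Retained introns reached 5% for 4 genes (Arsa, Cln3, Npc1 and Tpp1), and 5 reached 10% when all noncoding types were counted. The shares of all detected genes were not taken at these settings, so these counts stand without a background. LAMP-2B held 46.2% with the alignment-free tables.

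Leaving out each replicate in turn gave a median of 40.4 to 49.0 TPM, a median SD of log2 CPM of 0.0723 to 0.136 and 37 genes detected each time. The median deviations ran from 0.0287 to 0.0344 in replicate 1, from -0.0287 to 0.00623 in replicate 2 and from -0.0344 to -0.00623 in replicate 3. Counts stayed at 0 for the range limit, 0 for the difference between quantifications and 2 for retained introns, and ran from 33 to 35 for a main transcript. LAMP-2B ran from 49.6 to 52.0%, and the share of nuclear protein-coding counts from 4.69 to 4.92%. The E-box count was 9, 8 for the longer letters and 8 with 1 window per gene. The shares of Psap, Arsa and Npc1 transcripts in the alignment-free tables, TMM factors from protein-coding genes, alignment-free TPM over those genes and 1 window per gene were chosen after seeing the data. Depth did not limit detection of these genes, but shares of rare transcripts such as LAMP-2C rest on fewer than 100 counts per library.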
